A study of Homo sapiens with 4 samples.

Results

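Circular RNAs of MED13L and MED13, a pair of related genes that encode subunits of the Mediator complex, were examined in exosomes of pancreatic cancer cells. They were chosen by host gene name, with their reads already known: every circRNA listed for MED13L or MED13 was taken, whatever its class. This gave 10 of the 12571 circRNAs listed, 7 of MED13L and 3 of MED13. A read in the 4 libraries was found for 8 of them, 5 of MED13L and 3 of MED13, among 9405 circRNAs with a read. The reads of these circles are therefore described without a test.

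Mediator is the large complex that carries signals from DNA-bound transcription factors to RNA polymerase II. Its head, middle and tail modules form the core, and a separate kinase module (CDK8 or CDK19, cyclin C, MED12 or MED12L, and MED13 or MED13L) docks on the core and loosens its contact with the polymerase. MED13 and its paralog MED13L are the large subunits that link the kinase module to the core, and the ubiquitin ligase subunit FBXW7 marks both for breakdown. A circRNA forms when the end of an exon (the donor) is joined backwards to the start of the same or an upstream exon (the acceptor), a step called back-splicing, and a read across that joint, a junction read, is what was counted.

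Exosomes, small vesicles that cells release, came from medium of established pancreatic cancer lines, and every sample names the same lines: BxPC-3, MIA PaCa-2, PANC-1 and SW1990. Group A held 2 libraries of cells without irradiation (A1 and A2) and group B held 2 libraries of cells given 10 Gy of X-rays to obtain dying cells (B1 and B2). All cells were grown with exosome-depleted serum, and the total RNA was depleted of rRNA. Which lines went into which library, and whether the libraries of a group came from separate cultures, is not given in the labels, so the spread between libraries may be technical. The second irradiated library was read from the column named B2, but its 1861 circRNAs are fewer than the study's own library summary gives. The numbers of A1 and A2 equal that summary, and that of B1 nearly does. Whether B2 is that library is therefore not settled, and every value of B2 carries this doubt. A further column, named A3, matched no sample title and was not used, though at a first look it held MED13L reads. If A3 is a further control, the controls were not free of MED13L reads. Every absence from the controls and every fold over their limit therefore covers A1 and A2 only. Among epithelial markers checked as host genes, EPCAM had 2 junction reads, both in B1. KRT7, KRT8, KRT18, KRT19, CDH1, MUC1 and S100P had none.

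The libraries differed in the kind of circRNA they held, and this bears on every level given here. A1, A2, B1 and B2 held 2052, 2485, 3492 and 1861 circRNAs, which add up to little more than the 9405 with a read. Most circRNAs were thus seen in a single library. Junction reads numbered 6544, 8094, 15150 and 5756 in the same order. Exonic circles took 0.0458% of these reads in A1 and 0.0494% in A2, against 66.5% in B1 and 35.9% in B2. Of the 2567 exonic circRNAs with a read, 2560 (99.7%) had none in both controls, and for the 1050 sense overlapping circRNAs, which overlap a gene on its strand without being built of its annotated exons alone, the count was 484 (46.1%). Among circRNAs in circBase, of any class, it was 2403 of 2410 (99.7%). A circle that was exonic or in circBase, hsa_circ_0000443 included, was thus usually at 0 in A1 and A2. The part that this difference between the libraries had in the levels of MED13L and MED13 was not tested.

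**Figure D1:**
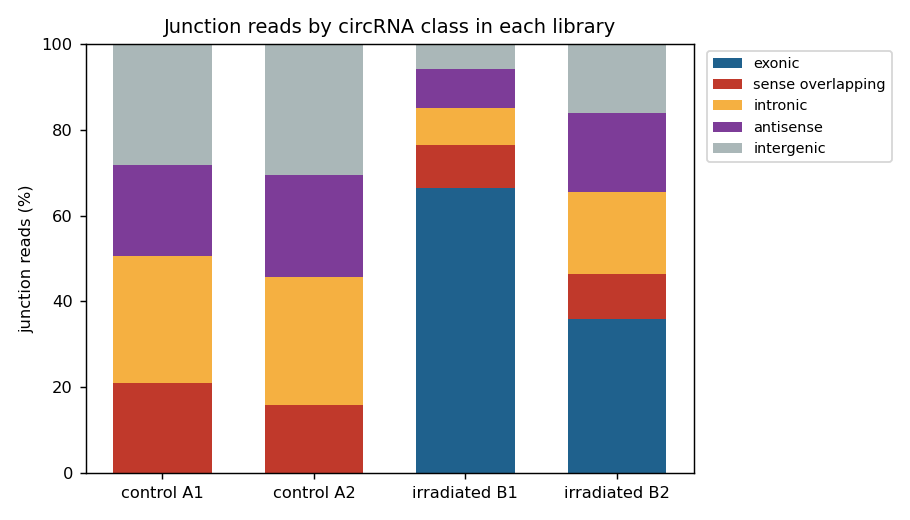
Share of junction reads (%, vertical axis) in each of the 4 libraries, split by the class of the circRNA. Exonic circles fill 66.5% of B1 and 35.9% of B2 and are hardly visible in A1 and A2.

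The joints themselves show how the circles are built. In each sequence below, taken from GRCh37 (hg19) and written 5′ to 3′, the lower-case bases are the last 20 of the circle before the joint and the capitals are the first 20 after it. MED13L lies on the minus strand of chromosome 12 and MED13 on the minus strand of chromosome 17. The circles with reads on the minus strand, and for comparison the exon 2 circle hsa_circ_0008151 with none, read as follows.
hsa_circ_0000443: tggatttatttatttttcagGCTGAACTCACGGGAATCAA
hsa_circ_0000442: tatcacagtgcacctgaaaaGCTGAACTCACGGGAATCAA
hsa_circ_0008151: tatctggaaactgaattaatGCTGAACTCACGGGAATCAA
hsa_circ_0000441: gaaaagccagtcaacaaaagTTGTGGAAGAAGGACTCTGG
MED13L circle into exon 4, not in circBase: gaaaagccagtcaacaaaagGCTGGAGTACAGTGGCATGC
hsa_circ_0004273 (MED13): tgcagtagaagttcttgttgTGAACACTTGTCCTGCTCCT
MED13 circle of exons 10 to 12, not in circBase: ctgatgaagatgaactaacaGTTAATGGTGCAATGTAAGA
hsa_circ_0002220 (MED13): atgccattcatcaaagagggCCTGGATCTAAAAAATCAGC

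The first 3 of these share their capitals, the start of MED13L exon 2, and differ before the joint. The circle hsa_circ_0000441 and the unlisted circle after it share the lower-case part, the end of MED13L exon 4. The MED13 circles share neither end with each other. The 20 bases on each side of a joint occurred once in GRCh37 for every circle on the minus strand, with 1 exception: the capitals of the unlisted MED13L circle occurred 42 times.

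hsa_circ_0000443 carried most of the MED13L reads. It spans chr12:116668338-116675510 on the minus strand and is classed as sense overlapping. It had 42 junction reads in B1 and 0 in A1, A2 and B2. In B1 this was 27.7 reads per 10000 junction reads (Wilson 95% interval 20.5 to 37.4), the unit used for all levels here, and rank 4 among the 3492 circRNAs seen in that library. It was also the first of the 349 sense overlapping circRNAs of B1, ahead of one of HLA-DRB1, an antigen-presenting molecule, with 26 reads. The intervals cover counting error only.

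Columns B1 and B2 did not share this circle, subject to the doubt over B2. At the level of B1, the 5756 junction reads of B2 would hold 16.0 reads of hsa_circ_0000443, and none was found. A count of 0 in B2 allows up to 5.21 per 10000 (3 counts). The exact binomial 95% interval of B1 over B2 began at 4.14-fold and had no upper end. Such a gap was common between B1 and B2: of the 35 circRNAs with at least 20 reads in B1, 14 had no read in B2, and hsa_circ_0000443 had the most reads of these 14. Next among them came hsa_circ_0099634 of RMST, a long noncoding RNA, with 37 reads, and the median of the 35 in B2 was 2 reads.

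The controls had no read of hsa_circ_0000443 in 14638 junction reads, which allows up to 2.05 per 10000. Over both irradiated libraries the level was 9.80 times this limit (42 reads against a floor of 3 counts over the group). Counting error of the 42 reads is not in that fold. Without B1 there is no read and no fold. The mean of group B was 13.9 ± 19.6 per 10000 (SD, n = 2), a spread wider than the mean. Whether fewer exosomes carried a circle or each carried fewer copies cannot be told apart in bulk RNA, and this holds for each circle below.

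**Figure D2:**
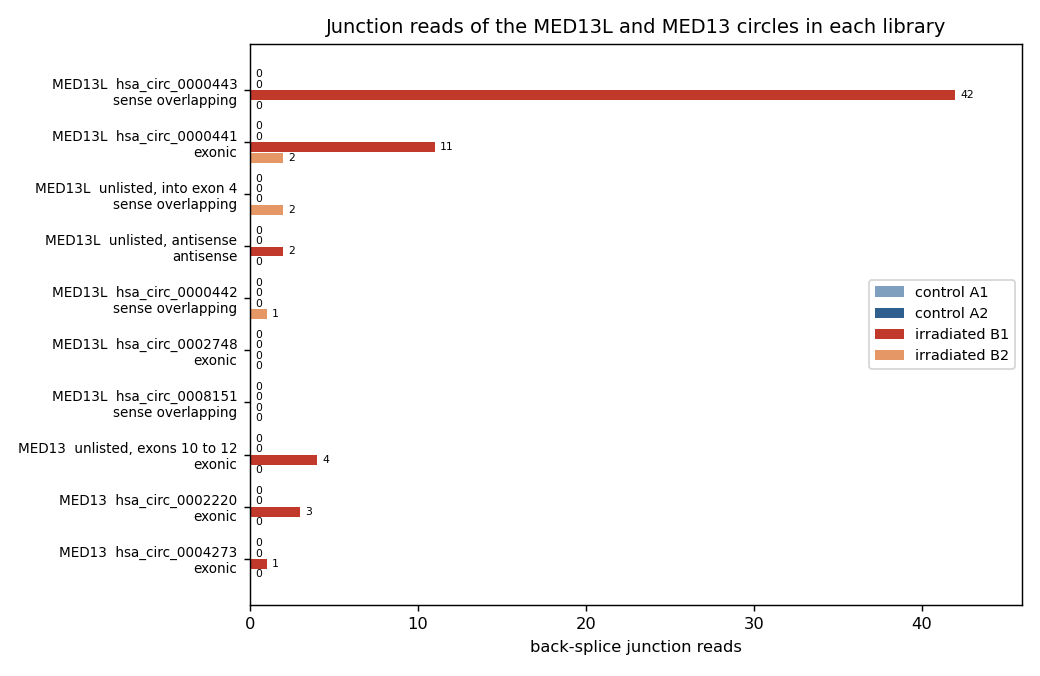
Junction reads (horizontal axis) of each of the 10 circles in each library, with the count printed at each bar. All bars of A1 and A2 are at 0, the longest is the 42 reads of hsa_circ_0000443 in B1, and hsa_circ_0000441 alone has reads in both B1 and B2.

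The ends of hsa_circ_0000443 are exon ends, but not of one transcript. Its acceptor is the start of MED13L exon 2 (238 nt). Its donor is the end of a 90 nt exon inside intron 2, at chr12:116668338-116668427, which GENCODE annotates in 2 transcripts with no defined coding region. No annotated transcript holds both ends. Joined through the annotated exons, the circle would be 398 nt (exons of 238, 70 and 90 nt) or 496 nt with a further exon of 98 nt. The 7173 nt listed for it are the whole genomic span, as in all 795 nuclear sense overlapping circRNAs with a read. Among the 144 of these that circBase holds, 23 (16.0%) had both ends at annotated exon ends and 19 of the 23 shared no transcript between them, so hsa_circ_0000443 is 1 of 19.

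hsa_circ_0000442 and hsa_circ_0008151 start at the same acceptor and stop at other exons of intron 2. hsa_circ_0000442 (chr12:116668238-116675510) ends at a 100 nt exon and had 1 read, in B2 (1.74 per 10000, Wilson 95% interval 0.307 to 9.84). Its annotated exons add up to 338 or 408 nt. hsa_circ_0008151 (chr12:116674626-116675510) ends at the 70 nt exon, would be 308 nt, and had no read. So the 3 circles of exon 2 had 42 reads in B1 from one of them and 1 read in B2 from another.

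The donors of hsa_circ_0000443 and hsa_circ_0000442 lie in one stretch, shown because a single border serves both exons. The 90 nt exon directly abuts the 100 nt exon, and the capitals mark the last 2 bases of the former and the first 2 of the latter, on the minus strand at chr12:116668238-116668427.
MED13L intron 2, 90 nt exon and 100 nt exon: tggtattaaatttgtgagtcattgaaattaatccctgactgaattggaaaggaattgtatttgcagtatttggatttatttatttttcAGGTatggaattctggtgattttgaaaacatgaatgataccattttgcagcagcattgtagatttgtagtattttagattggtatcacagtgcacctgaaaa
The GT that opens the 100 nt exon is the motif that follows the donor of hsa_circ_0000443, and the AG that closes the 90 nt exon is the motif that precedes a 100 nt exon. The bases beside the joint of hsa_circ_0000443 are aattttttgtctttttccAG before exon 2 and GTatggaattctggtgattt after the donor, with the motif in capitals.

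An antisense entry mirrors hsa_circ_0000443. It has the same ends, chr12:116668338-116675510, on the plus strand, is not in circBase, and had 2 reads in B1 and 0 in the other libraries. Its ends carry AG and GT only when read on the opposite strand, that of MED13L, as was so for 1041 of 1782 nuclear antisense circRNAs (58.4%). It made up 4.55% of the reads of both strands. Among 31 circBase circles with at least 20 reads in B1, 10 had reads on the opposite strand at the same ends, at shares from 4.55% to 25.9% (median 8.20%), and the MED13L pair had the lowest of these. Per the study's methods the library kit keeps the strand, and how junction calling used it is not given in the sources used here.

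**Figure D3:**
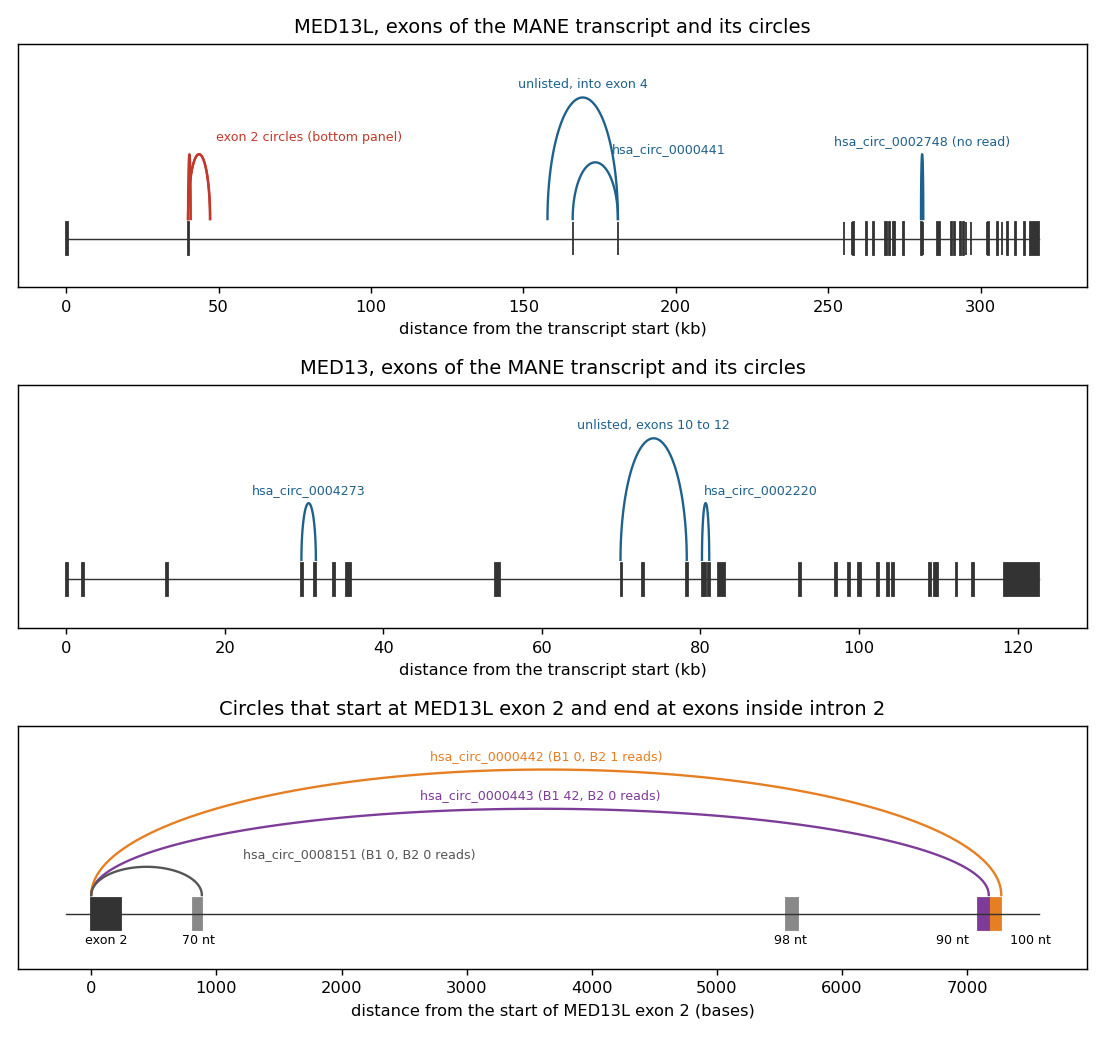
Exons (boxes) and circles (arcs from acceptor to donor) along MED13L and MED13, with distance from the transcript start in kb, and, at the bottom, the circles of MED13L exon 2 with distance in bases. Short exons are widened to be visible in the upper panels, arc heights carry no value, and hsa_circ_0000443 ends where the 90 nt and 100 nt exons meet.

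hsa_circ_0000441 was the only circle of either gene with reads in both irradiated libraries. It is exonic, consists of MED13L exons 3 and 4 (85 and 84 nt, chr12:116534474-116549317), and both exons lie in the coding region. It had 11 reads in B1 and 2 in B2, with 0 in A1 and A2. These are 7.26 per 10000 in B1 (Wilson 95% interval 4.05 to 13) and 3.47 in B2 (0.953 to 12.7), and B1 over B2 was 2.09 with an exact binomial 95% interval of 0.456 to 19.4. The levels of B1 and B2 thus did not differ beyond counting error. Over group B the level was 3.03 times the limit of the controls, without the counting error of group B. The mean of group B was 5.37 ± 2.68 per 10000 (SD, n = 2).

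At 169 nt, hsa_circ_0000441 was a short circle. Of the 2567 exonic circles with a read, 2.03% were shorter, and their median was 452 nt. In B1 it held rank 99 among 2178 exonic circRNAs. Its ends are followed and preceded by GTgagcctttagaatgctct and ttttttcttttttttttcAG, with the splice motifs in capitals.

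The same stretch is a single exon in MED13. MED13L exons 3 and 4 together align without a gap to MED13 exon 3, also 169 nt, at 74.0% identity, against 63.0% over the whole coding regions (6630 and 6522 nt). The 44 bases that differ are in capitals.
MED13L exons 3 and 4: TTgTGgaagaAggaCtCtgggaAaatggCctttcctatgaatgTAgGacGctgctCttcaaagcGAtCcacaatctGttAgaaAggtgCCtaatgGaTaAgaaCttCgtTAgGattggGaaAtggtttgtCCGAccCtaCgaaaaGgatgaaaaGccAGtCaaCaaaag
MED13 exon 3: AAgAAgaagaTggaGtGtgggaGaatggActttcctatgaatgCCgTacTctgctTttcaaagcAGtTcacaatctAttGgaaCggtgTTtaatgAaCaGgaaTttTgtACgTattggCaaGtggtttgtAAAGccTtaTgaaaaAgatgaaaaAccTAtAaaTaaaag
No circle of MED13 exon 3 (chr17:60129898-60130066) is among the 3 listed for MED13. Both sides of the hsa_circ_0000441 joint had 1 copy in the genome.

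The unlisted sense overlapping circle chr12:116534474-116557584 had 2 reads in B2 (3.47 per 10000, Wilson 95% interval 0.953 to 12.7) and 0 elsewhere. It ends at exon 4 like hsa_circ_0000441, but its acceptor lies in intron 2, at no annotated exon start, in sequence present 42 times in GRCh37. Its position is therefore less certain than that of the other circles. hsa_circ_0002748 (exons 15 and 16, 427 nt, chr12:116434281-116435035) had no read in the 4 libraries.

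The MED13 circles were all exonic and all seen in B1 alone, and most circRNAs of any host were seen in a single library. The circle of exons 10 to 12 (418 nt, chr17:60064368-60072726), which circBase does not hold, had 4 reads in B1 and 0 in A1, A2 and B2. hsa_circ_0002220 (exons 13 to 15, 503 nt, chr17:60061532-60062451) had 3 reads in B1 and 0 in the others. hsa_circ_0004273 (exons 4 and 5, 344 nt, chr17:60111148-60112969) had 1 read in B1 and 0 in the others. The first 2 are neighbours, the donor exon of one being directly followed by the acceptor exon of the other. Lengths were near the middle of the exonic circles, of which 34.1% to 56.1% were shorter.

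Summed over circles, MED13L had 55 reads in B1, 5 in B2 and none in A1 or A2. The levels were 36.3 per 10000 in B1 (Wilson 95% interval 27.9 to 47.2) and 8.69 in B2 (3.71 to 20.3). Per all junction reads, B1 exceeded B2 4.18-fold (exact binomial 95% interval 1.69 to 13.4). Exonic circles took 66.5% of these reads in B1 and 35.9% in B2, and whether the fold holds per exonic reads was not tested. Both levels lay above the limits of 4.58 in A1 and 3.71 in A2, although the interval of B2 reached below the limit of A1. The level of group B was 14.0 times the limit of the controls with both libraries, 17.7 times with B1 alone and 4.24 times with B2 alone. These folds leave out the counting error of group B, and the limit covers A1 and A2 only. They would not stand if the unused column that held MED13L reads is a further control. The mean of group B was 22.5 ± 19.5 per 10000 (SD, n = 2).

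MED13 had 8 reads in B1 and none in the other 3 libraries. Its level in B1 was 5.28 per 10000 (Wilson 95% interval 2.68 to 10.4). A count of 0 allows 5.21 per 10000 in B2, close to the level of B1. The exact binomial 95% interval of B1 over B2 began at 0.649-fold and had no upper end. The absence of MED13 from B2 thus cannot be read as a difference. The level of group B was 1.87 times the limit of the controls, and 2.58 times with B1 alone. These folds leave out the counting error of group B, so they are no lower bounds. The mean was 2.64 ± 3.73 per 10000 (SD, n = 2).

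The make-up of the MED13L reads differed between B1 and B2. In B1, hsa_circ_0000443 gave 42 of 55 reads (76.4%), the exonic circle 11 and the antisense entry 2 (3.64%). In B2, 2 of 5 reads were exonic and 3 sense overlapping. With 5 reads, the shares in B2 are too coarse for a comparison. All 8 reads of MED13 were exonic.

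In the comparison of group B with group A across circRNAs, 1957 reached a total of 5 reads and entered edgeR's quasi-likelihood fit. The study's methods call a circRNA at a change above 2-fold with p below 0.05 before adjustment, and by that rule 69 (3.53%) were higher and 4 (0.204%) lower in group B. With Benjamini-Hochberg adjustment 2 were higher and 0 lower. With no normalization factors, the rule called 7 higher and 25 lower, so the split depends on the scaling. The study itself reports more circRNAs in each direction by its rule than the main fit here. Its edgeR version was another and it states no read filter, and the reason for the gap was not tested. Only 2 of the 10 MED13L and MED13 circles reached 5 reads, and 1 of them, hsa_circ_0000443, was among the 69, with no adjusted call. As the circles were selected on these same reads, nothing is read from that count.

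Other subunits of Mediator gave few circles. Of the 31 other subunits checked, a list drawn up by role, 8 had a circRNA listed and 4 had a read. The kinase CDK19, the paralog of CDK8, had 3 reads of hsa_circ_0130325 in B2 and 0 in the other libraries. CDK8 itself had 2 reads of an intronic junction in A2 only. MED25, a tail-region subunit bound by activators, had 5 reads in B2 of an exonic circle of 220 nt that circBase does not hold (chr19:50331706-50332347) and 0 elsewhere. MED27, of the head, had 2 reads of an antisense junction in A1 only. None of these 4 hosts had reads in B1, which held most reads of MED13L and all of MED13. As most circRNAs were seen in a single library, nothing is read from this lack of overlap.

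Of these, only the MED25 circle was tested, and it was not called (log2 fold change 5.80, edgeR adjusted p = 0.549), beside a median log2 fold change of 5.0 over all circRNAs tested. So 0 of 1 was called higher, against 3.53% of all tested, and DESeq2 called none either. MED1, MED4, MED12L and MED14 each had 1 circRNA listed without a read. MED13L and MED13 together held 63 of the 63 reads that the kinase module had in B1 and 5 of its 8 in B2. Both genes were chosen with their reads known, so nothing is read from these shares.

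FBXW7, the substrate-binding subunit of the ligase that acts on MED13 and MED13L, gave hsa_circ_0001451, which had 12 reads in B1, 8 in B2 and none in either control. Unlike hsa_circ_0000443, it had reads in both irradiated libraries. These are counts and not levels, out of 15150 junction reads in B1 and 5756 in B2. By the unadjusted rule hsa_circ_0001451 was called higher in group B, but not after adjustment (edgeR adjusted p = 0.549). Its log2 fold change was 7.23, beside a median of 5.0 over all circRNAs tested. It has no control read, and with DESeq2 its log2 fold change was 5.76. Among 10 alternatives it was called in 5, with adjusted p from 0.00186 to 0.579. Of the 5 calls, 2, the lowest adjusted p among them, came from fits without B1 or without B2, in which group B is 1 library and is assumed to vary like the controls. Among its primers, the study lists a circFBXW7 as commonly expressed, and whether that is hsa_circ_0001451 is not given. The scaffold CUL1 had 1 circRNA listed with no read, and SKP1 and RBX1 had none listed. So 1 of 1 tested of this list was called, beside 3.53% of all tested. The list was chosen with earlier results of these data known and held 1 tested circle, so nothing is read from that share.

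RNA polymerase II and the general transcription factors, which Mediator brings together at promoters, were checked as hosts too. Of 51 genes, 13 had a circRNA listed and 10 had a read, and summed to 2 (A1), 9 (A2), 13 (B1) and 7 (B2) reads. The most reads were those of GTF2F2, a subunit of TFIIF. It had 7, in exonic hsa_circ_0007259 (2 in B1), an antisense junction (3 in A2) and an intronic one (2 in A1). GTF2E1, of TFIIE, had 2 reads in B1 and 4 in B2 of hsa_circ_0006498 and was the 1 circle tested, which was not called (edgeR adjusted p = 0.549). ERCC2, a helicase of TFIIH, and TAF4, of TFIID, had 4 reads each, of ERCC2 in B1 and of TAF4 in A2. These 51 genes had 31 reads together, beside 60 of MED13L. As MED13L was chosen with its reads known, nothing is read from that contrast.

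Among all hosts, MED13L ranked 14 by reads over the 4 libraries of 4670 with a read, and 57 by circles with a read, sharing that rank among 63 hosts with 5 each. MED13, with 8 reads, was 1 of 163 hosts at rank 771. The hosts whose levels were most like those of MED13L, by Euclidean distance over the 4 libraries in log2(reads per 10000 + 1) among 164 other hosts with at least 20 reads, were FCHO2 (50 reads in B1 and 6 in B2, distance 0.273), RARS and SETD3 (43 and 5 each, 0.344), ARHGAP10 (45 and 4, 0.40) and UBAP2 (40 and 7, 0.627). FCHO2 takes part in the start of clathrin-coated pits, RARS charges arginine tRNA, SETD3 methylates actin and UBAP2 binds ubiquitin. All 5 had 0 in A1 and A2, as MED13L did. For MED13, the closest hosts of 165 were KANSL1, RHBDD1, SENP6 and ZNF208 (20 reads in B1 only, distance 1.18 each) and MFN2 (21 in B1 only, 1.24), all near the minimum of 20 reads, which MED13 itself did not reach.

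**Figure D4:**
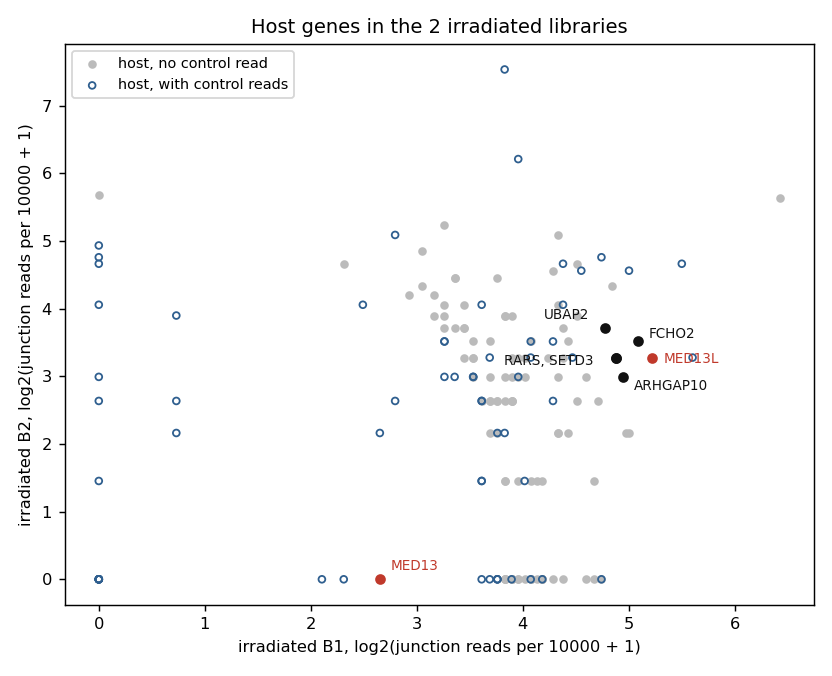
Level of each host gene with at least 20 reads, and of MED13, in B1 (horizontal axis) and B2 (vertical axis), both as log2(junction reads per 10000 + 1), with open circles for hosts that also had control reads. MED13L lies beside FCHO2, RARS, SETD3, ARHGAP10 and UBAP2, and MED13 lies on the axis at 0 in B2.

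Sequence around the circles was compared as well, since inverted repeats on both sides of a circle can pair and bring its ends together. The longest exact inverted match between the 1000 bases on each side was 11 bases for hsa_circ_0000443 and 11 for hsa_circ_0000441, equal to the median of 11 over the 2567 exonic circles with a read (quartiles 10 and 18, highest 85). The other MED13L circles had 10 to 14 bases. hsa_circ_0002220 of MED13 had the longest of the 10 circles, 21 bases, and 81.1% of the exonic circles had a shorter one. The other MED13 circles had 10 and 12. The 2 circles with the most reads therefore had matches of ordinary length in this window, and longer or imperfect repeats were not searched.

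**Figure D5:**
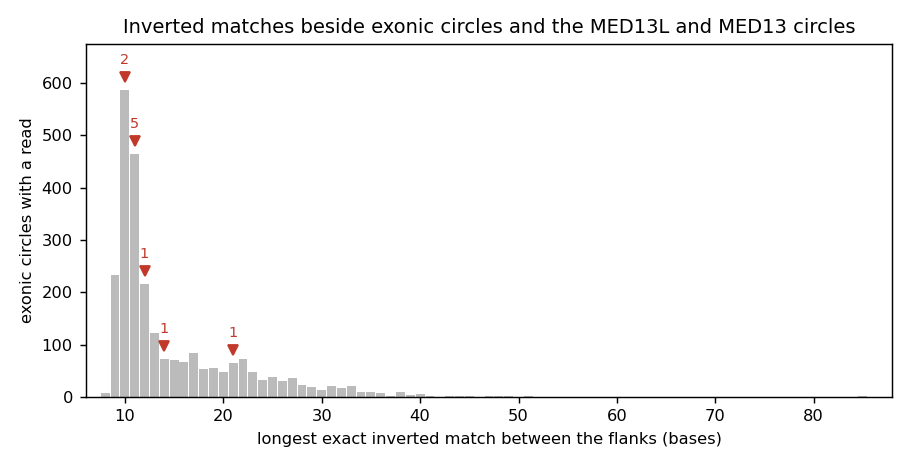
Number of exonic circles with a read (vertical axis) by the longest exact inverted match between their flanks in bases (horizontal axis), with triangles and numbers for the MED13L and MED13 circles at each length. Of the 10 circles, 9 lie at 10 to 14 bases and 1, hsa_circ_0002220, at 21.

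The exons of the other circles were compared with the paralog too. MED13L exon 2 and its counterpart in MED13 were 60.8% identical over the coding bases aligned. The exons of hsa_circ_0004273 were 68.0% identical to MED13L exons 5 and 6, those of the exon 10 to 12 circle 58.2% to exons 11 to 13, and those of hsa_circ_0002220 61.2% to exons 14 to 16. That last stretch overlaps the counterpart of hsa_circ_0002748, the exon 15 and 16 circle of MED13L without a read. So neither the exon 2 circles nor the exon 3 and 4 circle of MED13L had a counterpart among the MED13 circles listed.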

How the data were processed

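The authors sequenced rRNA-depleted total RNA of exosomes as paired ends. Per the labels and the study's methods reads were trimmed (cutadapt 1.9.3), mapped to the hg19 genome (STAR 2.5.1b) and searched for back-splice junctions (DCC). The deposited values used are counts of junction reads per circRNA and library, with no normalization. The table has 6 columns of junction reads. In all, 4 columns of per-library values, with names A3 and B3, matched no sample title and were not used. At a first look, A3 held MED13L reads, so control means A1 and A2 alone. If A3 is a further control, MED13L reads were not absent from the controls, and this is not settled. Whether the second irradiated sample is column B2 or B3 is not settled, and B2 was taken because its name matches the title. The authors' log2 CPM values were not used, and 1 emptied line of the table was not analysed here.

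The members and gene lists were chosen with earlier results of these data known. Levels are junction reads per 10000 with Wilson 95% intervals, and 0 is bounded by 3 counts. The 1957 circRNAs with 5 or more reads in all were tested in edgeR 4.0.16 (R 4.3.3) with TMM and the quasi-likelihood F test, group only, after a check on simulated data, with DESeq2 1.42.0 as an alternative. The TMM factors were 2.30 and 2.12 in group A and 0.325 and 0.631 in group B, and the common dispersion was 4.18. The simulated data were given a far lower dispersion, so that check cannot show how the test behaves on these libraries. Other alternatives changed the size factors, filter, call rule and denominator, added the replicate number, or left out a library. Described were all circles of both genes, other Mediator subunits with reads, up to 4 polymerase II factors and the 5 hosts closest in level. Exons are those of GENCODE 44 on GRCh37 (all 25 chromosomes of the table lie within its lengths), numbered in the MANE transcripts, and sequences were read from that genome with pysam 0.24.0. Paralog coding regions were aligned globally in Biopython 1.88. A result for 1 marker gene is not reported here.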

Additional observations from a re-analysis of the deposited data

How the results depend on the processing

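Depth limits every level: a count of 0 allows between 1.98 (B1) and 5.21 (B2) per 10000, and with 2 libraries per group the smallest two-sided p of an exact permutation test is 0.333. Over all circRNAs, the main test called 69 higher and 4 lower in group B. It called 14 and 0 with RLE factors, 7 and 25 with no normalization factors, 3 and 5 with DESeq2, 42 and 9 with no filter beyond 1 read, 132 and 6 with at least 10 reads (307 tested), and 2 and 0 at an adjusted p under 0.05. Leaving out 1 library gave 5 to 367 higher and 0 to 19 lower, with 113 and 14 without B1 and 367 and 19 without B2, 13 and 0 without A1, and 5 and 3 without A2. The median log2 fold change over all tested moved from 5.0 to 5.82 (RLE factors), 3.69 (no factors) and -4.06 (without B1). The median thus rests on the scaling and on B1, and the share of calls in each direction on the scaling. The cause was not tested. With the replicate number as a block 73 were called higher and 5 lower. The labels give no shared source for a number, so the numbers were not used for pairing. The deviations of same-numbered libraries had a correlation of 0.00543 over 2 pairs. As most circRNAs were seen in a single library, that value cannot decide whether the numbers share a source. No alternative called a circRNA of another Mediator subunit; the 1 that could be tested, of MED25, dropped out with at least 10 reads and without B2, where 0 calls was fixed in advance. The MED13L level in group B, 22.5 per 10000, was 5.37 with exonic circles alone, 39.4 per 10000 exonic reads, and 8.69 to 36.3 with 1 library left out. The MED13 level, 2.64, was 1.32 with circBase circles alone, 3.97 per 10000 exonic reads, and 0 to 5.28 with 1 library left out. With 2 libraries, leaving one out always moves the mean by less than 1 SD, so these ranges are no sign of stability.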

Other observations

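Markers of other cell types were scarce among the host genes. Of 8 blood markers, 2 had reads: PTPRC, a leukocyte surface phosphatase, had 2 in A2 and PPBP, a platelet chemokine, had 2 in A1, and the hemoglobin genes HBA1, HBA2 and HBB had none. Of 7 stroma markers, 3 had reads: COL3A1, a fibrillar collagen, had 8 in B2 over 2 junctions, VIM, an intermediate filament that pancreatic cancer lines can also express, had 6 in B2, and PDGFRB had 3 in A1. Their sums were 2, 2, 0 and 0 for blood and 3, 0, 0 and 14 for stroma in A1, A2, B1 and B2, so B1, with most MED13L and MED13 reads, held none of either list. The junctions behind these reads were intronic, antisense or sense overlapping, and none was exonic or in circBase.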
